A study of Mus musculus with 9 samples.

Results

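The genes described here are 10 genes of the lipid droplet, chosen by name from the 21899 genes of a deposited RNA-seq table of N2a cells: the coat proteins Plin2, Plin3 and Plin4, the lipolysis genes Pnpla2, Abhd5, Lipe and Mgll, the acyltransferases Dgat1 and Dgat2, and Bscl2. N2a (Neuro-2a) is a mouse neuroblastoma line, labelled as neuroblasts of brain origin with no drug treatment. The 9 libraries were made from poly(A) RNA and fell into 3 groups of 3. Cells labelled as luciferase knockdown (shlucif) were the control, and cells labelled as Arf1 knockdown carried one of 2 hairpins, shArf1-1 or shArf1-2. The table names the columns of the second hairpin shArf2, which is not the name in the sample titles, and they were assigned to shArf1-2 as the only columns left for it. Hairpins were delivered from the pLKO.1 lentiviral plasmid, so the control cells also carried a transduced hairpin, and no time after transduction was used here. Arf1 encodes a small GTPase that recruits coat proteins to Golgi membranes and also acts at lipid droplets. The labels do not say that the 3 libraries of a group came from separate cultures, so the p-values measure the spread between these libraries, which may be technical.

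A lipid droplet is a core of triacylglycerol and sterol ester inside a phospholipid monolayer. DGAT enzymes make the triacylglycerol in the endoplasmic reticulum, seipin (Bscl2) sits where the droplet buds, and perilipins coat the surface and control access of lipases. Lipolysis proceeds in steps, with ATGL (Pnpla2) and its cofactor Abhd5 removing the first fatty acid, hormone-sensitive lipase (Lipe) acting on diacylglycerol and monoacylglycerol lipase (Mgll) finishing the breakdown. In neurons Mgll is best known for degrading the endocannabinoid 2-arachidonoylglycerol. Neurons hold few droplets at rest.

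The 21-base sense stems of the hairpins are printed first because they define the groups, 5′ to 3′ in lower case. They were read from the oligonucleotide table of the study.
shArf1-1: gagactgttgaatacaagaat
shArf1-2: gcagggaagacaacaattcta
Both stems matched the coding sequence of Arf1 with all 21 bases, in GRCm38 chromosome 11, minus strand. The shArf1-1 target lay at 59213222 to 59213242 in exon 3 of 5, and the shArf1-2 target lay at 59213386 to 59213406 in exon 2 of 5. Each stem occurred in 2 of 2 annotated Arf1 transcripts that were searched, and in 0 of the 73 GENCODE transcripts of the 10 droplet genes on either strand, allowing no mismatch.

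Arf1 itself was lower with each hairpin. Its level was 328, 316 and 328 FPKM (counts scaled by the authors to gene length and library total) in the shlucif libraries, 130, 128 and 127 FPKM with shArf1-1 and 166, 157 and 171 FPKM with shArf1-2. The 3 groups did not overlap, and Arf1 fell by 1.39 ± 0.05 (log2, SE) with shArf1-1 and by 1.05 ± 0.05 with shArf1-2 (n = 3 libraries per group; edgeR adjusted p = 1.39e-22 and 4.20e-19). All adjusted p-values labelled edgeR are Benjamini-Hochberg values over the 12448 genes that passed the filter on low counts, from the quasi-likelihood test of that package, with a threshold of 0.05, and the log2 values are fold changes of scaled counts.

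The shlucif libraries differed from the others in cell type markers as well as in Arf1. Total counts per library were 13381570 to 13786986 for shlucif, 11182479 to 15594615 for shArf1-1 and 13463280 to 14659400 for shArf1-2. The summed level of 24 macrophage or microglia markers was 217 to 260 FPKM in the shlucif libraries, 0.964 to 1.16 FPKM with shArf1-1 and 1.34 to 1.45 FPKM with shArf1-2. Of the 21 that were tested, 20 fell with each hairpin, where 29.0% of all tested genes did. For all 20 a fall was the only call possible, since they passed the filter only through the shlucif libraries. Of these, 15 were at or under 3 counts in every hairpin library. Lyz2, Cd68, Laptm5, Fcgr1 and Adgre1 were at most 0.72 CPM there. The share of 29.0% is therefore no measure for these falls. Lyz2 (lysozyme) had 1078 to 1237 counts with shlucif against 3 to 10 with the hairpins, Cd68 had 849 to 1050 against 2 to 7, and Ctss (cathepsin S) had 564 to 649 against 0. The defining genes Spi1, Itgam, C1qb and C1qc were also at 0 counts in all 6 hairpin libraries. Tubb3, Chga and Phox2a, which mark neuroblasts and sympathetic neurons, were the highest of their list in abundance and were present in every library. The summed level of the 16 neuroblast markers was 733 to 768 FPKM in the shlucif libraries, 1140 to 1316 FPKM with shArf1-1 and 1167 to 1256 FPKM with shArf1-2. Of the 13 tested, 10 rose and 1 fell with each hairpin, against 27.3% and 29.0% of all tested genes. The shlucif libraries thus held markers of a cell type that the label neuroblast does not name. The part of their source in the differences from shlucif reported below was not tested. In bulk libraries a second kind of cell cannot be told apart from expression by the N2a cells themselves. Nor can a smaller number of such cells be told apart from less RNA per cell.

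**Figure D1:**
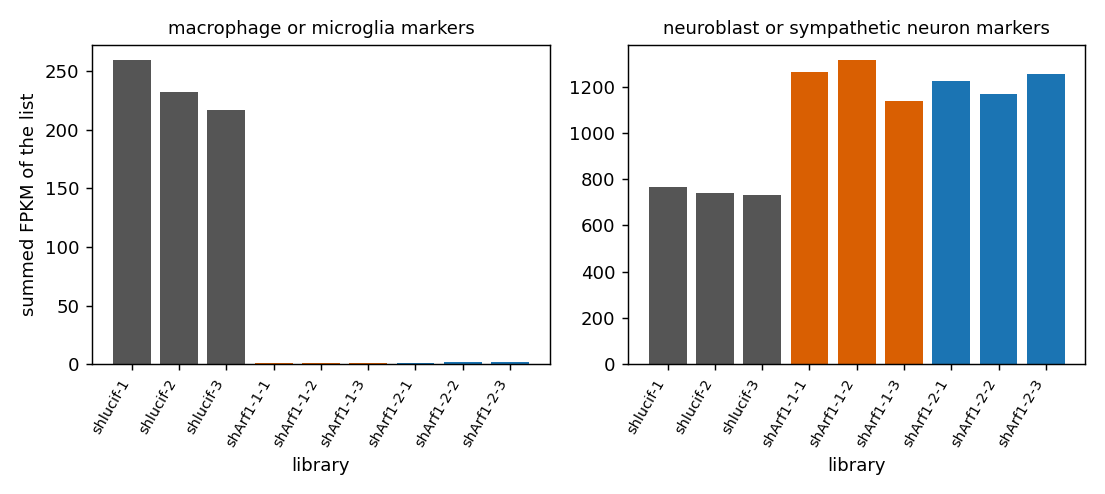
Summed FPKM (vertical axis) of the 24 macrophage or microglia markers (left) and the 16 neuroblast or sympathetic neuron markers (right) in each of the 9 libraries, 1 bar per library, coloured by hairpin. The macrophage bars stand at 217 to 260 FPKM in the shlucif libraries and at 0.964 to 1.45 FPKM in the other 6, while the neuroblast bars are 733 to 768 FPKM in the shlucif libraries and 1140 to 1316 FPKM in the other 6.

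Of the 10 droplet genes, 9 passed the filter and Plin4 did not. With shArf1-1, 7 of the 9 fell and 1 rose, against a background of 34.4% of all tested genes lower and 33.1% higher. With shArf1-2, 4 fell and 1 rose, where 32.6% of tested genes were lower and 30.9% higher. Plin2, Plin3, Pnpla2 and Abhd5 fell and Mgll rose with each hairpin, so 4 of 9 were lower and 1 of 9 higher in both comparisons (background 29.0% and 27.3%). These comparisons share the shlucif libraries. Averaged over both hairpins, 6 fell and 1 rose (background 35.6% and 33.8%), with a median log2 fold change of -0.37 over the 9 genes and -0.00038 over all tested genes. On CPM values (counts scaled to library size, here with TMM factors), all 6 hairpin libraries lay below all 3 shlucif libraries for 5 of the 9 genes and above them for 1 (background 30.1% and 27.9%). In each of these comparisons the share of the 9 genes that were lower was above the background and the share that were higher was below it, as a description of 9 genes with no test.

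**Figure D2:**
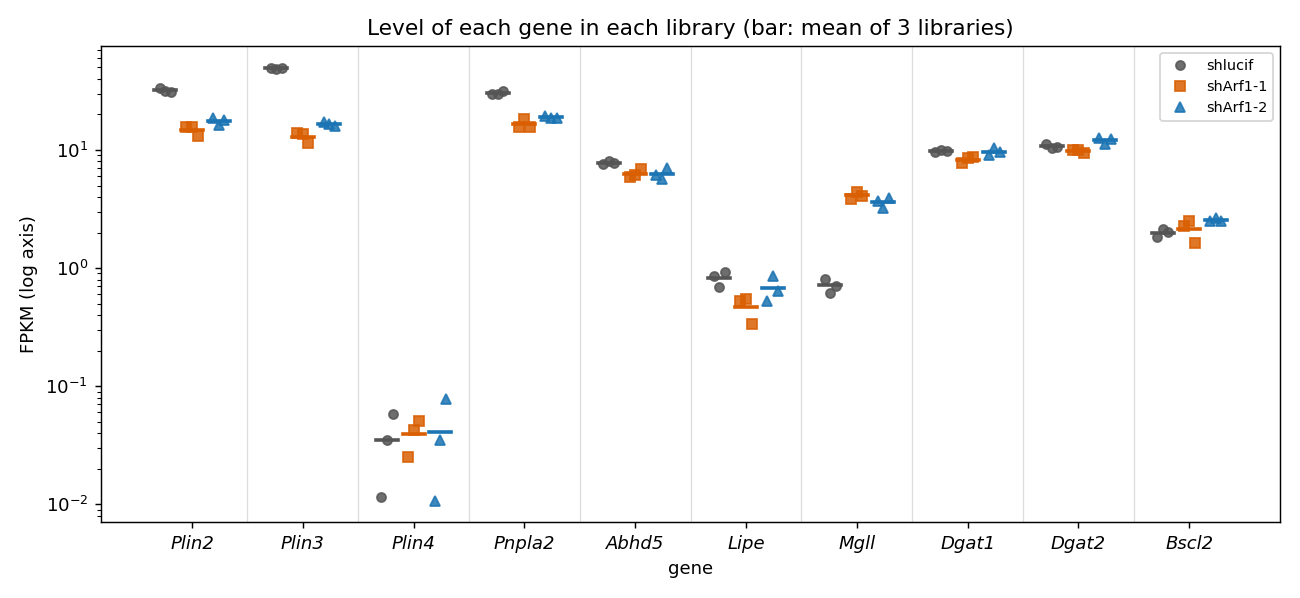
FPKM on a log axis (vertical) of each of the 10 genes (horizontal) in each library, with 3 points per hairpin group and a bar at their mean. Plin3 drops from 48.7 to 49.9 FPKM in the shlucif libraries to 11.4 to 17.4 FPKM in the other 6, Mgll climbs from at most 0.814 FPKM to at least 3.20 FPKM, and Plin4 stays at or below 0.0779 FPKM throughout.

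Per length, the coats Plin3 and Plin2 and the lipase Pnpla2 were the most abundant of the 10 genes in every group. In the shlucif libraries Plin3 stood highest at 49.4 ± 0.6 FPKM (SD, n = 3), above 94.0% of the 15588 genes with a count there. Plin2 at 32.2 ± 1.1 FPKM and Pnpla2 at 30.5 ± 1.0 FPKM followed with overlapping ranges. Below them came Dgat2, Dgat1, Abhd5 and Bscl2, each apart from its neighbours, then Lipe and Mgll with overlapping ranges, and Plin4 last. With each hairpin the order of the leading genes became Pnpla2, Plin2 and Plin3, where each overlapped the next, and Mgll stood above Bscl2 and Lipe with no overlap. The summed level of all 10 genes was 144 ± 1 FPKM with shlucif, 75.6 ± 4.1 FPKM with shArf1-1 and 88.1 ± 2.3 FPKM with shArf1-2.

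The largest fall was that of Plin3 (TIP47, a coat protein that moves from the cytosol to nascent droplets; chromosome 17, 56277476 to 56292873, minus strand, GRCm38). Its level was 49.9, 48.7 and 49.7 FPKM in the shlucif libraries, 13.9, 13.6 and 11.4 FPKM with shArf1-1 and 17.4, 16.6 and 15.9 FPKM with shArf1-2. The 3 groups did not overlap, and the shlucif libraries spanned little more than 1 FPKM. Plin3 fell by 1.99 ± 0.07 (log2, SE) with shArf1-1, a 3.97-fold fall, and by 1.64 ± 0.07 with shArf1-2, a 3.13-fold fall (edgeR adjusted p = 2.35e-23 and 2.76e-21). Plin3 had 2468 to 2604 counts per shlucif library and 574 to 965 per hairpin library. The part of the source of the macrophage markers in this fall was not tested.

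Plin2 (adipophilin, the perilipin of most non-adipose cells, whose protein is stable only on droplets; chromosome 4, 86648386 to 86670060, minus strand) fell to about the level of Plin3. It stood at 33.4, 31.8 and 31.2 FPKM with shlucif, 15.7, 15.7 and 13.2 FPKM with shArf1-1 and 18.6, 16.3 and 17.8 FPKM with shArf1-2. Again the groups did not overlap. The fall was 2.25-fold with shArf1-1 and 1.92-fold with shArf1-2 (log2 fold changes -1.17 ± 0.07 and -0.94 ± 0.07; edgeR adjusted p = 4.65e-16 and 1.18e-13). The 3 perilipins together came to 81.6 ± 1.5 FPKM with shlucif, 27.9 ± 2.8 FPKM with shArf1-1 and 34.2 ± 1.6 FPKM with shArf1-2.

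Plin4 (a coat protein of adipocytes and muscle; chromosome 17, 56100591 to 56109803, minus strand) had 1 to 5 counts per library with shlucif, 2 to 5 with shArf1-1 and 1 to 7 with shArf1-2. It was not tested, and a difference was not detectable at this depth.

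Among the lipolysis genes, Pnpla2 (ATGL, the rate-limiting triacylglycerol lipase; chromosome 7, 141455198 to 141460743, plus strand) fell with each hairpin. Its level was 29.9, 29.9 and 31.7 FPKM with shlucif, 15.7, 18.4 and 15.7 FPKM with shArf1-1 and 19.5, 18.6 and 18.6 FPKM with shArf1-2. All hairpin libraries lay below all shlucif libraries. The fall was 1.91-fold with shArf1-1 and 1.69-fold with shArf1-2 (log2 fold changes -0.93 ± 0.07 and -0.76 ± 0.07; edgeR adjusted p = 9.84e-14 and 1.47e-11).

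Its cofactor Abhd5 (CGI-58; chromosome 9, 122351608 to 122381524, plus strand) fell less. It stood at 7.55, 8.08 and 7.81 FPKM with shlucif, 5.90, 6.17 and 6.87 FPKM with shArf1-1 and 6.09, 5.72 and 7.01 FPKM with shArf1-2. The hairpin libraries were all below the shlucif libraries, and the hairpin groups overlapped each other. The log2 fold change was -0.36 ± 0.08 with shArf1-1 and -0.39 ± 0.08 with shArf1-2 (edgeR adjusted p = 0.000375 and 0.000153). An antisense gene shares 950 exonic bases with Abhd5, and the use of strand in counting is not given in the sources used here, so reads of both cannot be told apart.

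Lipe (chromosome 7, 25379527 to 25398710, minus strand) was read at low depth, with 54 to 75 counts per library with shlucif, 31 to 39 with shArf1-1 and 45 to 68 with shArf1-2. Its level was 0.863, 0.686 and 0.935 FPKM with shlucif, 0.529, 0.547 and 0.338 FPKM with shArf1-1 and 0.522, 0.858 and 0.636 FPKM with shArf1-2. The shArf1-1 libraries lay below the shlucif libraries, while the shArf1-2 libraries overlapped them. The log2 fold change was -0.89 ± 0.25 with shArf1-1 (edgeR adjusted p = 0.00213) and -0.38 ± 0.24 with shArf1-2 (edgeR adjusted p = 0.16). Averaged over both hairpins it was -0.63 ± 0.21 (edgeR adjusted p = 0.0070), and without shlucif replicate 3 it no longer passed (-0.53, edgeR adjusted p = 0.0583). An antisense gene shares 918 exonic bases with Lipe.

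Mgll (chromosome 6, 88724412 to 88828360, plus strand) was the only one of the 9 tested genes that passed the threshold as a rise in the main model. It had 57, 42 and 49 counts in the shlucif libraries, 243, 251 and 326 with shArf1-1 and 274, 219 and 283 with shArf1-2. In FPKM this was 0.814, 0.618 and 0.708 with shlucif, 3.82, 4.42 and 4.12 with shArf1-1 and 3.68, 3.20 and 3.94 with shArf1-2. Every hairpin library exceeded every shlucif library, and the hairpin groups overlapped each other. The antisense gene Gm26588 shares 167 exonic bases with Mgll. The rise was 5.54-fold with shArf1-1 and 4.80-fold with shArf1-2 (log2 fold changes 2.47 ± 0.15 and 2.26 ± 0.15; edgeR adjusted p = 6.95e-17 and 1.16e-15). Mgll made up 1.79% ± 0.26 (SD, n = 3) of the summed FPKM of the 4 lipolysis genes with shlucif, 15.0% ± 0.2 with shArf1-1 and 12.2% ± 0.9 with shArf1-2. The genes whose levels ran closest to it over the 9 libraries, among 10236 genes of at least 5 CPM on average, were Nrp1, Mmp15 and Lrrn4. Their root mean square differences from Mgll, on log2 CPM centred on the shlucif mean, were 0.139, 0.139 and 0.151.

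The acyltransferases changed little. Dgat1 (chromosome 15, 76502015 to 76511953, minus strand), which makes triacylglycerol mainly from imported or recycled fatty acids, stood at 9.68, 10.1 and 9.77 FPKM with shlucif, 7.76, 8.49 and 8.67 FPKM with shArf1-1 and 9.04, 10.3 and 9.71 FPKM with shArf1-2. The shArf1-1 libraries were the lowest, and the shArf1-2 libraries overlapped the shlucif libraries on this scale. The log2 fold change was -0.30 ± 0.09 with shArf1-1 (edgeR adjusted p = 0.00408) and -0.10 ± 0.09 with shArf1-2 (edgeR adjusted p = 0.349). The averaged change of -0.20 (edgeR adjusted p = 0.0228) passed in 11 of 19 alternative settings and did not pass with library totals alone (-0.13, edgeR adjusted p = 0.117), nor without shlucif replicate 2 (adjusted p = 0.0652), shlucif replicate 3 (0.0525), shArf1-1 replicate 1 (0.0551) or shArf1-2 replicate 1 (0.0580), all by edgeR. It was also lost with limma on log2 FPKM with a pseudocount of 1 or 0.1, and in a 2-group edgeR fit that joined the hairpins.

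Dgat2 (chromosome 7, 99153658 to 99182719, minus strand), which is tied more to newly synthesized fatty acids, stood at 11.3, 10.4 and 10.5 FPKM with shlucif, 10.003, 9.92 and 9.46 FPKM with shArf1-1 and 12.7, 11.3 and 12.3 FPKM with shArf1-2. The hairpin groups lay on opposite sides of the shlucif mean of 10.8 FPKM. The log2 fold change was -0.19 ± 0.09 with shArf1-1 (edgeR adjusted p = 0.0493) and 0.10 ± 0.08 with shArf1-2 (edgeR adjusted p = 0.31). The first of these passed in 6 of its 19 alternative settings. It did not pass without shlucif replicate 1 or 3, without any 1 of the shArf1-1 replicates, or without shArf1-2 replicate 1 or 3 (edgeR adjusted p = 0.0511 to 0.179). Nor did it pass with DESeq2, library totals alone, no filter on low counts, only the 6 libraries compared, or limma on log2 FPKM with either pseudocount. The shArf1-2 value passed in 2 of 19 settings, limma on log2 FPKM with a pseudocount of 1 or 0.1 (0.16 and 0.17, limma adjusted p = 0.0392 and 0.0396).

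Bscl2 (seipin; chromosome 19, 8837467 to 8848683, plus strand) did not pass with either hairpin, although its shArf1-2 value passed, as a rise, in 5 of 19 alternative settings (adjusted p down to 0.0217, with library totals alone in edgeR). Its level was 1.83, 2.14 and 2.03 FPKM with shlucif, 2.26, 2.502 and 1.64 FPKM with shArf1-1 and 2.52, 2.67 and 2.503 FPKM with shArf1-2. The shArf1-2 libraries lay above the shlucif libraries, and the shArf1-1 libraries spanned them. The log2 fold change was 0.03 with shArf1-1 (95% confidence interval -0.25 to 0.30; edgeR adjusted p = 0.874) and 0.29 with shArf1-2 (95% confidence interval 0.02 to 0.56; edgeR adjusted p = 0.0584). Without shArf1-1 replicate 2 or replicate 3, the shArf1-2 value passed (edgeR adjusted p = 0.0475 and 0.0346), and without the latter so did the averaged value (0.24, edgeR adjusted p = 0.0483). Bscl2 shares 398 exonic bases with Gng3 on the opposite strand and 239 with AC129217.1 on its own strand, so its counts are uncertain.

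**Figure D3:**
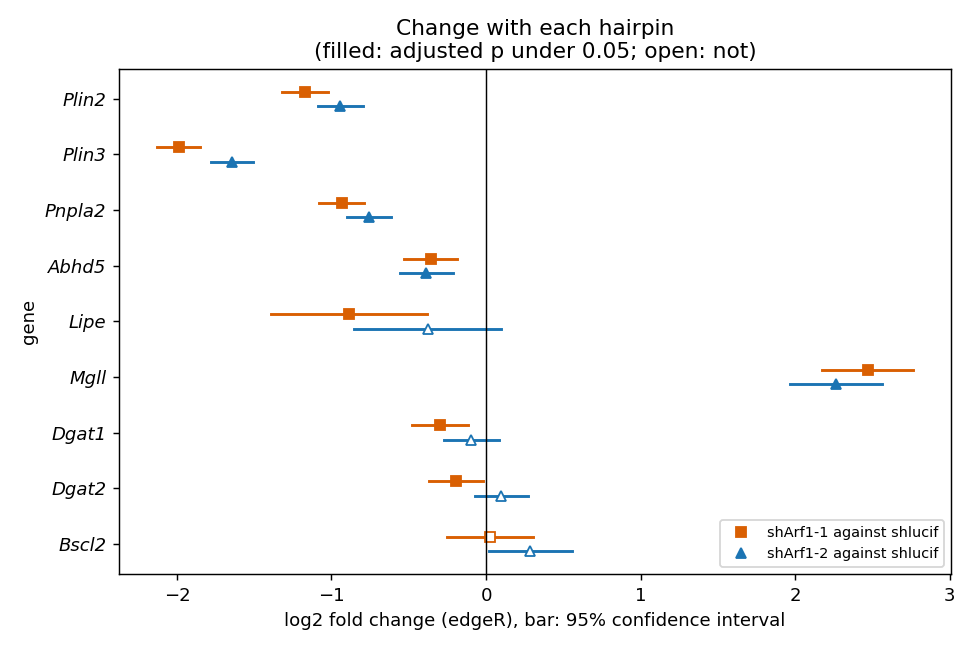
Log2 fold change against shlucif (horizontal axis) of the 9 tested genes with shArf1-1 (squares) and shArf1-2 (triangles), with 95% confidence intervals as bars and filled symbols for adjusted p under 0.05 in edgeR's test. Plin3 lies farthest left, at -1.99 and -1.64, Mgll lies alone on the right, at 2.47 and 2.26, and both symbols are open for Bscl2.

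The hairpins differed from each other for 3 of the 9 genes, where 14.4% of all tested genes differed. This comparison does not use the shlucif levels, although the shlucif libraries entered the filter, the scaling and the shared estimate of spread. A fit of only the 6 libraries compared also gave 3 genes. The summed macrophage markers were at most 1.45 FPKM in all 6 libraries. With shArf1-2 compared with shArf1-1, Plin3 was higher by 0.35 ± 0.07 on the log2 scale (edgeR adjusted p = 0.000912), Dgat2 by 0.29 ± 0.09 (edgeR adjusted p = 0.0181) and Plin2 by 0.23 ± 0.08 (edgeR adjusted p = 0.0357). Arf1 was itself higher with shArf1-2, by 0.34 ± 0.05 (edgeR adjusted p = 1.16e-05). The Plin2 and Dgat2 differences no longer passed without shArf1-1 replicate 3, shArf1-2 replicate 1 or shArf1-2 replicate 3 (edgeR adjusted p = 0.24, 0.186 and 0.112 for Plin2, and 0.0683, 0.103 and 0.0706 for Dgat2), and Plin3 passed in all 19 alternative settings. The Plin2 difference passed in 14 of 19, since limma on log2 FPKM with a pseudocount of 1 or 0.1 also ended it (limma adjusted p = 0.0552 and 0.0542). For Mgll the difference was -0.21 (95% confidence interval -0.44 to 0.03), and for Abhd5 it was -0.03 (95% confidence interval -0.20 to 0.15). Pnpla2 differed by 0.17 (95% confidence interval 0.03 to 0.32; edgeR adjusted p = 0.11) and passed without shArf1-1 replicate 2 (0.25, edgeR adjusted p = 0.0155).

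Ratios of FPKM within a library do not depend on how libraries are scaled to each other, and 4 were taken, chosen after the levels had been seen. Plin3 per Plin2 was 1.49, 1.53 and 1.59 in the shlucif libraries and 0.861 to 1.02 in the 6 hairpin libraries, so the coat genes moved from unequal to nearly equal levels. Abhd5 per Pnpla2 was 0.247 to 0.270 with shlucif and 0.307 to 0.437 with the hairpins. Mgll per Pnpla2 was 0.0207 to 0.0273 with shlucif and 0.172 to 0.262 with the hairpins. Dgat2 per Dgat1 overlapped, at 1.03 to 1.17 with shlucif and 1.09 to 1.41 with the hairpins. The mean log2 ratio of the hairpin libraries minus that of the shlucif libraries was -0.76 for Plin3 per Plin2, 0.47 for Abhd5 per Pnpla2, 3.22 for Mgll per Pnpla2 and 0.15 for Dgat2 per Dgat1. These are descriptions with no test, since the pairs were picked from genes already seen to differ in their changes.

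**Figure D4:**
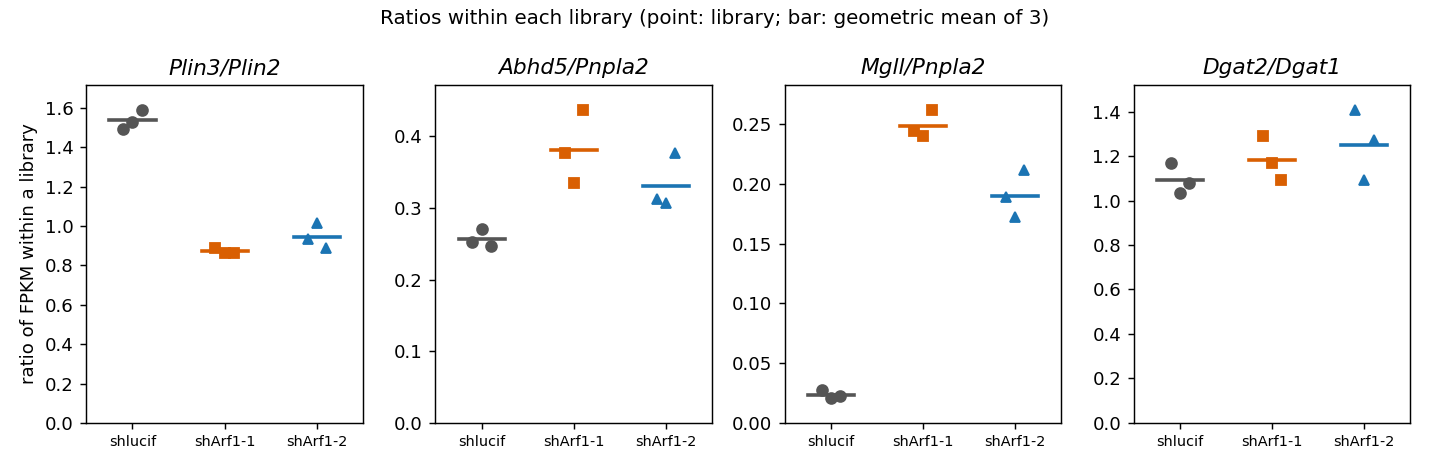
Ratio of FPKM values within each library (vertical axis, from 0) for 4 gene pairs, with 3 points per hairpin group and a bar at their geometric mean. Plin3 per Plin2 drops from 1.54 to 0.872 and 0.946, Mgll per Pnpla2 goes from 0.0233 to 0.248 and 0.190, and the Dgat2 per Dgat1 points overlap.

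RefSeq promoters (GRCm38.p6, 250 bases before to 50 after a start site) were at hand for 8 of the 10 genes. Those of the 3 genes that fell most with both hairpins and the upstream promoter of Mgll, which rose with both, are printed 5′ to 3′ on the gene's strand. Capitals mark matches on either strand to any of 6 motifs: GGGCGG (the GC box), CACGTG (an E-box), AGGTCA (a nuclear receptor site), GTAAACA (a forkhead site), TCACNCCAC (a sterol regulatory element) and TATAAA (the TATA box). Overlapping matches were counted separately.
Plin3 (chr17:56290462-56290761, minus strand): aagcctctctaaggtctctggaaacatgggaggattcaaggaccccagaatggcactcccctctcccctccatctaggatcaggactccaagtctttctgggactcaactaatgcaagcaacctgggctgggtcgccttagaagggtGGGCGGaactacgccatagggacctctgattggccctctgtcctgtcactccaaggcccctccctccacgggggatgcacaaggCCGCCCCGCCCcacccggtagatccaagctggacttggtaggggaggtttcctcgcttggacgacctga
Plin2 (chr4:86670010-86670309, minus strand): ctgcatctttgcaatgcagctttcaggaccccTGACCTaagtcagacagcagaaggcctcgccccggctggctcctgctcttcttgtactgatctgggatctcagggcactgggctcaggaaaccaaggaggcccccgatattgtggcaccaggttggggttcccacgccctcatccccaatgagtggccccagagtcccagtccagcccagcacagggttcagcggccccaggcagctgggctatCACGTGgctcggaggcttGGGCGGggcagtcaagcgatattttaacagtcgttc
Pnpla2 (chr7:141454938-141455237, plus strand): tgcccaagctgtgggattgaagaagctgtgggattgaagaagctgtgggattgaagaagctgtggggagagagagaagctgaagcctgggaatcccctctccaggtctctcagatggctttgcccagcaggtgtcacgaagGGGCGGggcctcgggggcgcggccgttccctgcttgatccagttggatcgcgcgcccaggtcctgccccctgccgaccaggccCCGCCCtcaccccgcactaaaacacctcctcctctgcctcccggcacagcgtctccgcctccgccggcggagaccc
Mgll (chr6:88724162-88724461, plus strand): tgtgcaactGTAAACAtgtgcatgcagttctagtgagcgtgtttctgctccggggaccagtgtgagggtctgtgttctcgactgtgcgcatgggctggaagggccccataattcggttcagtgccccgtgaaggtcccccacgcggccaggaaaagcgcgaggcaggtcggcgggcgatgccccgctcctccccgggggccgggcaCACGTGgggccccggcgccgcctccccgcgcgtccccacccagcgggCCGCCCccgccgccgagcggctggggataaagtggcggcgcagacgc
The GC box was found in all 4, with 3 matches in Plin3, 2 in Pnpla2 and 1 each in Plin2 and Mgll, and 35.7% of the 32851 promoters in the table hold it. CACGTG was found in Plin2 and Mgll, 1 gene that fell and 1 that rose, and in 7.15% of all promoters. Plin2 also held 1 AGGTCA match (16.3% of all promoters) and Mgll 1 GTAAACA match (3.65%). TCACNCCAC (1.24%) and TATAAA (13.6%) were in none of the 4. The promoter of Abhd5, which fell less with each hairpin, is not printed and held 1 GC box and 1 AGGTCA match. Among others not printed, that of Plin4 held 0 GC boxes and a promoter of Lipe held 6. The GC content was 59.3% for Plin3, 60.7% for Plin2, 65.3% for Pnpla2 and 70.0% for Mgll, with a median of 52.7% over all promoters.

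The other genes of droplet metabolism, taken from named lists, did not move as 1 block. Of 15 other droplet coat and surface genes in the table, 8 were tested, and 3 fell and 1 rose with each hairpin, with a median averaged log2 fold change of -0.19. Ldah (a droplet hydrolase) fell by 0.33 ± 0.06, Rab18 (a droplet GTPase) by 0.26 ± 0.06 and Aup1 (a droplet ubiquitin-ligase adaptor) by 0.26 ± 0.07, while Faf2 (which helps to extract droplet proteins) rose by 0.27 ± 0.05. Cidea was at 0 counts in every library, and the adipocyte coat Plin1 had 0 to 5 counts per library with shlucif and 5 to 13 with the hairpins, too few to be tested. Of 10 tested droplet biogenesis and endoplasmic reticulum genes, 4 fell and 3 rose. Both lists are small, and over all tested genes 29.0% fell and 27.3% rose with each hairpin. The oxysterol-binding protein relatives Osbpl2, Osbpl8 and Osbpl5 fell by 0.80, 0.46 and 0.30, and the budding factor Fitm2 and the phospholipid enzyme Lpcat1 rose by 0.47 and 0.52.

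In the glycerolipid and sterol ester synthesis list, 5 of 17 tested genes fell and 5 rose with each hairpin (median averaged log2 fold change 0.26), near the background of 29.0% lower and 27.3% higher. Soat1, which esterifies cholesterol, went from 8.42 to 8.80 FPKM with shlucif to 2.12 to 2.54 FPKM with the hairpins (log2 fold change -1.94 ± 0.06; edgeR adjusted p = 2.26e-24). Lpin1, the phosphatidate phosphatase that supplies diacylglycerol to the DGAT enzymes, went from 21.4 to 22.2 FPKM to 4.85 to 5.47 FPKM with shArf1-1 and 7.57 to 8.57 FPKM with shArf1-2 (averaged log2 fold change -1.83 ± 0.05; edgeR adjusted p = 1.96e-26). Agpat4 fell by 1.13 ± 0.06, and Gk (glycerol kinase) went from 61 to 75 counts per library to 0, at least 21.98-fold lower against a floor of 3 counts per library. Gk is counted among the 5 that fell, although it passed the filter only through the shlucif libraries and could only be called lower. In the same list Agpat5, Agpat3, Gpam and Agpat1, acyltransferases of the first steps of glycerolipid synthesis, rose by 0.51, 0.47, 0.37 and 0.29.

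Of 15 other tested lipases, cofactors and inhibitors, 5 fell and 3 rose with each hairpin (median -0.17), where 29.0% of all tested genes fell and 27.3% rose. Lpl (lipoprotein lipase, abundant in macrophages and adipocytes) went from 561 to 584 counts per shlucif library to 0 or 1 with the hairpins, at least 188-fold lower. Only the shlucif libraries took Lpl past the filter, so its place among the 5 that fell was the only call possible. Abhd4 fell by 1.06 ± 0.08, the lysosomal lipase Lipa by 1.00 ± 0.11 and the cholesterol ester hydrolase Nceh1 by 0.73 ± 0.09. Ddhd2, a neuronal triacylglycerol lipase, went from 7.76 to 8.62 FPKM with shlucif to 14.6 to 18.1 FPKM with the hairpins (log2 fold change 0.90 ± 0.06; edgeR adjusted p = 1.27e-15). Pnpla3 rose by 0.50 ± 0.15 and Daglb, which makes the substrate of Mgll, by 0.41 ± 0.06.

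Of 11 tested transcription factors known to act on droplet genes, 7 fell and 0 rose with each hairpin at an adjusted p under 0.05 (edgeR; median averaged log2 fold change -0.95), beside 29.0% lower and 27.3% higher over all tested genes. Ppard fell by 1.49 ± 0.06, Tfeb (a lysosome and lipophagy regulator) by 1.31 ± 0.07 and Pparg by 1.29 ± 0.11, and Foxo1, a regulator of Pnpla2, went from 24 to 30 counts per library to 0 to 3, at least 9.12-fold lower. Foxo1 is among the 7, but it passed the count filter only through the shlucif libraries, so a fall was its only possible call. Pparg stood at 5.95 to 6.73 FPKM with shlucif and 2.08 to 3.25 FPKM with the hairpins. Srebf1 rose by 0.13 in the average (edgeR adjusted p = 0.0181), with 0.14 for shArf1-1 (edgeR adjusted p = 0.0226) and 0.11 for shArf1-2 (edgeR adjusted p = 0.071). Its paralog Srebf2, among the 7, had a log2 fold change of -0.35 with each hairpin (edgeR adjusted p = 1.38e-07 for shArf1-1 and 1.71e-07 for shArf1-2). Several genes of these lists, among them Lpl, Pparg and Lipa, are also expressed by macrophages, and the part of the macrophage markers in their falls was not tested.

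**Figure D5:**
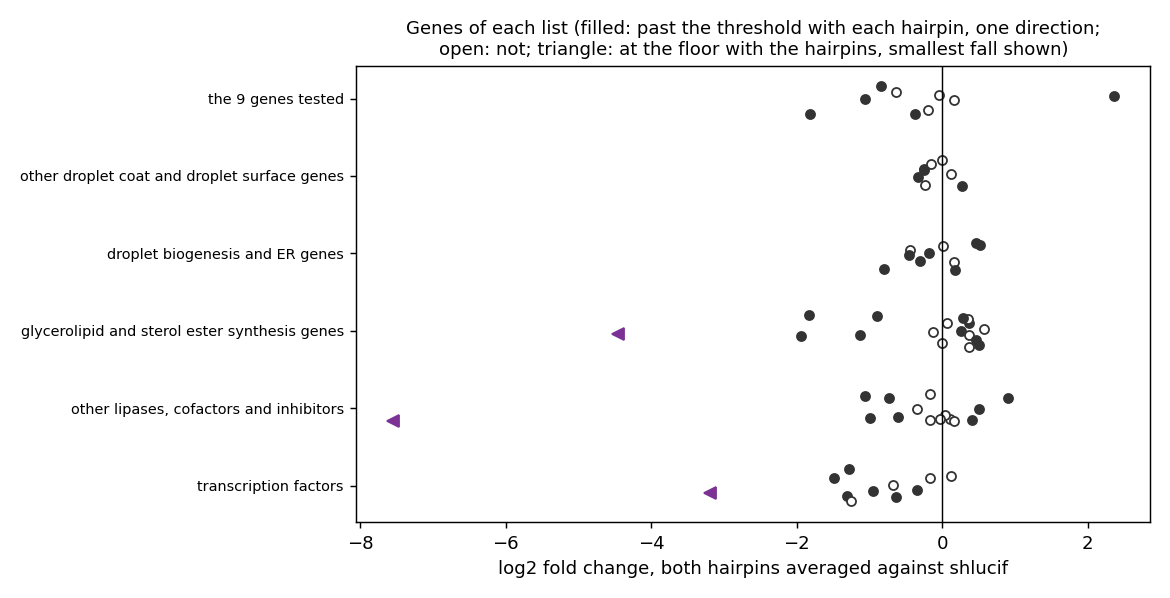
Averaged log2 fold change against shlucif (horizontal axis) of every tested gene of each list, 1 point per gene, filled where both hairpins passed in one direction. Triangles mark the 3 genes at or under 3 counts in every hairpin library (Gk, Lpl and Foxo1), placed at the smallest fall that the floor allows; the 9 droplet genes span -1.82 (Plin3) to 2.37 (Mgll).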

How the data were processed

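Poly(A) RNA-seq of 9 N2a libraries was analysed from 1 table. The authors deposited, per gene, raw read counts, which are not normalized, and FPKM values, which are the counts per kilobase of listed gene length, scaled to the library's counted reads; recomputed FPKM values matched 100% of the deposited ones within 0.01%. The submitters' processing notes name the build mm10, the aligner and counter are not given in the sources used here, and the starts listed for the 10 genes and Arf1 did not match GRCm38, so coordinates were taken from GENCODE vM21 (GRCm38) by gene identifier. Columns were matched to samples by name; those named shArf2 were taken as shArf1-2, the only hairpin left, with the replicate number last in both names. Broken text lines (8) were left out.

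Counts were fitted with edgeR 4.0.16 (filterByExpr, TMM scaling, robust quasi-likelihood F test) in 1 model of 3 groups over the 9 libraries, with Benjamini-Hochberg adjustment over 12448 genes. The contrasts were each hairpin against shlucif, their average against shlucif, and hairpin against hairpin. Total counts were 11182479 to 15594615 per library, and libraries of a group differed by more than sampling noise (chi-square per degree of freedom 2.99 to 8.61). Lower bounds used a floor of 3 counts per library and cover counting error only. The scripts were tested on simulated data.

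DESeq2 1.42.0, other scalings and filters, a replicate block, leaving out each library, and limma 3.58.1 on log2 FPKM with a pseudocount of 1 or 0.1 were tried. The 10 genes, the pathway and marker lists and the tests were chosen with earlier results of these data known. Named besides the 10 genes and Arf1 were, from each pathway list, at most 4 genes per direction with the largest averaged change among those past the threshold with each hairpin (described in part), the 3 genes nearest to Mgll, the 3 most abundant macrophage and neuroblast markers, and, chosen after their values were seen, Spi1, Itgam, C1qb, C1qc, Mrc1, Laptm5, Fcgr1, Adgre1, Aldh1l1, Cidea, Plin1, Srebf1 and Srebf2. Of the other marker lists, 1 of 1 tested adipocyte, 1 of 3 fibroblast, 1 of 1 astrocyte, 1 of 2 oligodendrocyte and 2 of 2 endothelial genes fell and 0 rose with each hairpin. Over all tested genes 29.0% fell and 27.3% rose. The adipocyte gene was at 0 counts in every hairpin library, so it could only be called lower. The astrocyte gene, Aldh1l1, was at 0.072 to 0.80 CPM in the hairpin libraries. It too passed the filter only through the shlucif libraries and could only be called lower. Spart was not used here.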

Additional observations from a re-analysis of the deposited data

Results flagged for a closer look

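The effect of the hairpins against shlucif differed between shArf1-1 and shArf1-2 for 3 of the 9 tested genes, by the test of that difference itself. Over all tested genes, 14.4% differed. The change with shArf1-2 minus the change with shArf1-1 was 0.35 (log2) for Plin3, 0.23 for Plin2 and 0.29 for Dgat2 (edgeR's quasi-likelihood test, Benjamini-Hochberg adjusted p = 0.000912, 0.0357 and 0.0181). All 3 shArf1-2 libraries were above all 3 shArf1-1 libraries for each of these genes. Only Plin3 still passed without shArf1-1 replicate 3, without shArf1-2 replicate 1 or without shArf1-2 replicate 3. The group of higher Plin3 and Plin2 was also the group of higher Arf1, and the part of the remaining Arf1 in these differences was not tested.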

How the results depend on the processing

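Of 684 alternative values for the genes and comparisons described, 637 kept their direction and their side of the threshold, 30 lost the threshold, 9 gained it and 8 changed sign, all with adjusted p over 0.05 in both settings. The sign changes were the averaged Dgat2 value with library totals alone (0.0161) and limma with a pseudocount of 1 (0.0158) or 0.1 (0.0165), the Abhd5 difference between the hairpins (-0.12 to 0.0397 over the fits that leave out 1 library, positive without shArf1-1 replicate 3 or shArf1-2 replicate 2) and Bscl2 with shArf1-1 (-0.107 to 0.201 over such fits, negative without shlucif replicate 1 or shArf1-1 replicate 1 or 2). The averaged falls of Plin3 (-1.85 to -1.69), Plin2 (-1.08 to -0.95), Pnpla2 (-0.89 to -0.75) and Abhd5 (-0.42 to -0.28) and the rise of Mgll (1.502 to 2.48) passed in all 19 settings each; the lowest Mgll value came from limma on log2(FPKM + 1), whose pseudocount shrinks low genes. The calls that were lost concerned Lipe, Dgat1, Dgat2 and the hairpin difference of Plin2 and Dgat2. Leaving out 1 library moved the number of genes that differed between the hairpins between 1 and 4, with 1 without shArf1-1 replicate 3, without shArf1-2 replicate 1 and without shArf1-2 replicate 3; the other counts stayed within 1.5 times. Same-numbered libraries of different groups did not deviate together (9 correlations, -0.08 to 0.09), and 4 of 9 libraries correlated best with their own number. No pairing by number was thus seen, though 3 libraries per group are too few to exclude one. The fit with the replicate number as a block gave 8, 5, 7 and 3 calls for shArf1-1, shArf1-2, their average and the hairpin difference, the same as without it. Depth limited Plin4 and Lipe, with at most 7 and 75 counts per library.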
